A study of Mus musculus with 6 samples.

Results

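Thymosin and actin dynamics genes were examined in primary mouse neurons in which CRISPRa was directed at *Kcna1*. The 10 genes were taken by their symbols from the 50508 symbols listed for each library, and all 10 were among the 19504 genes with a value above 0 in at least 1 library, which were tested. They were the β-thymosins *Tmsb4x* and *Tmsb10*, the cytoplasmic actins *Actb* and *Actg1*, the cofilins *Cfl1* and *Cfl2* with the related *Dstn*, the profilins *Pfn1* and *Pfn2*, and the stathmin *Stmn1*. *Tmsb4x* was chosen by its own values, high in sgLacZ and much lower in sgKcna1, so that its difference is described here and not tested.

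The neurons were cultured from the brain of newborn C57Bl/6J mouse pups and transduced with lentivirus. Every culture received a cleavage-defective Cas9 that carries the VP160 activation domain and is driven by the *Eef1a1* promoter, a promoter active in most cell types. Which cells of the cultures expressed it was not measured in these data. The groups differed in the guide RNA, sgLacZ as the control against a bacterial gene (3 libraries) or sgKcna1 against the promoter of *Kcna1*, which encodes the Kv1.1 potassium channel (3 libraries). The labels name the hippocampus, whereas the methods of the study name cortical neurons and give differing culture times before RNA extraction. The methods of the study speak in general of independent repetitions, but whether the 3 libraries of a group came from separate cultures is not stated for them, so that p-values measure the spread between these libraries, which may be technical.

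Actin cycles between monomers and filaments. β-Thymosins hold monomers in reserve, profilins load them with ATP and deliver them to growing filament ends, and cofilins with destrin sever and disassemble old filaments. In neurons this cycle drives the growth cone of the extending axon and later shapes dendritic spines. Stathmin acts on the other main filament system, binding tubulin dimers and promoting the disassembly of microtubules.

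Libraries were made from the 3′ ends of transcripts, and each value is a whole number per gene. These numbers summed to between 999047 and 999717 over a library. They are therefore read as 3′ tags scaled to a fixed library total, rounded by the authors and not divided by gene length, and sequencing depth is unknown. *Kcna1* itself was listed at 16, 16 and 16 in sgLacZ and at 68, 47 and 65 in sgKcna1. It rose by 1.83 on the log2 scale (SE 0.16, adjusted p = 0.034 from limma). The adjusted p was 0.11 with the replicate number as a block. Without any 1 library other than sgLacZ replicate 3 it lay from 0.11 to 0.14, with log2 differences from 1.73 to 1.99. The uncharacterized gene Gm42418 took from 15.3% to 20.2% of a library. The 10 genes together made up from 1.09% to 1.34% of a library, with overlapping groups. Of the 8050 genes averaging 10 or more, sgLacZ replicate 3 was the control library nearest to the sgKcna1 mean for 59.5%, and it was so for 7 of the 10 genes described here. Differences below are log2 differences, sgKcna1 minus sgLacZ, on the scale of log2(value + 1), which compresses differences at low values, given with the standard error (SE) from limma. A gene was called when its Benjamini-Hochberg adjusted p from limma over all genes tested was under 0.05. Of all genes tested, 1.16% were called, 0.349% higher and 0.810% lower in sgKcna1 (68 and 158 genes, or 962 and 757 with median-of-ratios scaling). A further 947 genes had an adjusted p from 0.05 to under 0.06, against 226 called, so that many genes lay close to this limit.

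The upstream sequences of *Tmsb4x* and *Pfn2*, the pair with the largest differences among the 10 genes at a mean of 50 or more, are shown with that of *Actg1*, since actin genes are textbook targets of the serum response factor and its CArG box. Each run is the 250 bases before a transcription start of RefSeq (GRCm38.p6), read 5′ to 3′ on the strand of the gene, which for all 3 is the minus strand. Capitals mark the motif GGGCGG, known as the GC box, the motif CCAAT and the CArG box. A search for these and for the motif TATAAA covered both strands. The *Tmsb4x* run lies at chrX:167209219-167209468, that of *Pfn2* at chr3:57847758-57848007 and that of *Actg1* at chr11:120348496-120348745.
Tmsb4x: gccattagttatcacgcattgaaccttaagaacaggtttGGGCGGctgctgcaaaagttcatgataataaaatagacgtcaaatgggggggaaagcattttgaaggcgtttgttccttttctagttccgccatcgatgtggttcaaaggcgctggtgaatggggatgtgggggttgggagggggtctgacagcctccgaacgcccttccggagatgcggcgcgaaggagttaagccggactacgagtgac
Pfn2: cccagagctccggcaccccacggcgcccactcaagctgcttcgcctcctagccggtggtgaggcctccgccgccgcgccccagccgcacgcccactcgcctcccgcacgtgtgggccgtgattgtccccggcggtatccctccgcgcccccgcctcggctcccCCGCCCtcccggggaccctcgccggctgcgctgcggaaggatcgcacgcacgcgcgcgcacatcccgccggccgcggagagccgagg
Actg1: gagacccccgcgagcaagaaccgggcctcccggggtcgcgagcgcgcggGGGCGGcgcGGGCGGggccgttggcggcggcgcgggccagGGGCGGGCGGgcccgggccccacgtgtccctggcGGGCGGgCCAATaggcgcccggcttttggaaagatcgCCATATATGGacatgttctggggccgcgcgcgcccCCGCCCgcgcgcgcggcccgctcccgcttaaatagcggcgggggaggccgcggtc

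Upstream windows matched 8 of the 10 genes, all except *Actb* and *Stmn1*, with 3 windows for *Tmsb10*. GGGCGG was present for 7 of the 8 genes (9 of their 10 windows), *Cfl1* being the exception, while 32.7% of all 32851 windows held it. The 10 windows ran from 52.0% to 79.2% GC, against a median of 52.4% over all windows. These counts were not matched for GC content. In *Tmsb4x* it lay 211 bases before the start and in *Pfn2* 87 bases before it, here on the opposite strand. The CArG box was present in *Actg1* alone, 90 bases before the start, and in 1.47% of all windows. The GGGCGG matches of *Actg1* overlap each other at 1 place. CCAAT was found for *Actg1*, *Cfl1* and *Cfl2*, and in 33.8% of all windows. TATAAA was found for 0 of the 8 genes and in 12.4% of all windows. These matches describe the letters only, and both *Dstn*, which lay higher in sgKcna1, and *Pfn2*, which lay lower, held the GC box.

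*Tmsb4x*, on chromosome X from 167207093 to 167213479 (GRCm38.p6), encodes thymosin β4, the main monomer-sequestering peptide of many cells. It was listed at 2547, 2317 and 1894 in the sgLacZ libraries and at 717, 566 and 455 in the sgKcna1 libraries. All 3 sgKcna1 libraries lay below all 3 sgLacZ libraries, and the lowest control was 2.64 times the highest sgKcna1 value. The means were 2253 ± 331 (SD, n = 3) and 579 ± 132 (SD, n = 3), a ratio of 3.89, and the log2 difference was -1.97 (SE 0.19). Among the 3263 genes with a mean of 50 or more it was the 3rd lowest difference. Of the 67 genes with a mean of 1000 or more it was the only 1 with a log2 difference of -1 or below. Since *Tmsb4x* was chosen for a large fall at a high value, these places restate that choice. In bulk cultures, fewer cells of a type and less RNA per cell cannot be told apart.

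*Tmsb10* encodes thymosin β10, a close relative with the same monomer-binding role that is high in developing brain. It was listed at 158, 160 and 149 in sgLacZ and at 104, 99 and 100 in sgKcna1. The libraries of each group were close together and the groups did not overlap. *Tmsb10* fell by 0.62 on the log2 scale (SE 0.08, adjusted p = 0.049 from limma), with means of 156 ± 5.86 and 101 ± 2.65 (SD, n = 3 each). The call was lost without the intensity trend of limma (adjusted p = 0.094) and without any 1 library other than sgLacZ replicate 3 (adjusted p from 0.11 to 0.14), while the log2 difference in these fits stayed between -0.64 and -0.60. The thymosins thus were both lower in sgKcna1, but by unequal amounts. *Tmsb4x* made up 94.2%, 93.5% and 92.7% of the summed thymosin value in sgLacZ and 87.3%, 85.1% and 82.0% in sgKcna1. Such a share is computed within a library and does not depend on its scaling.

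**Figure D1:**
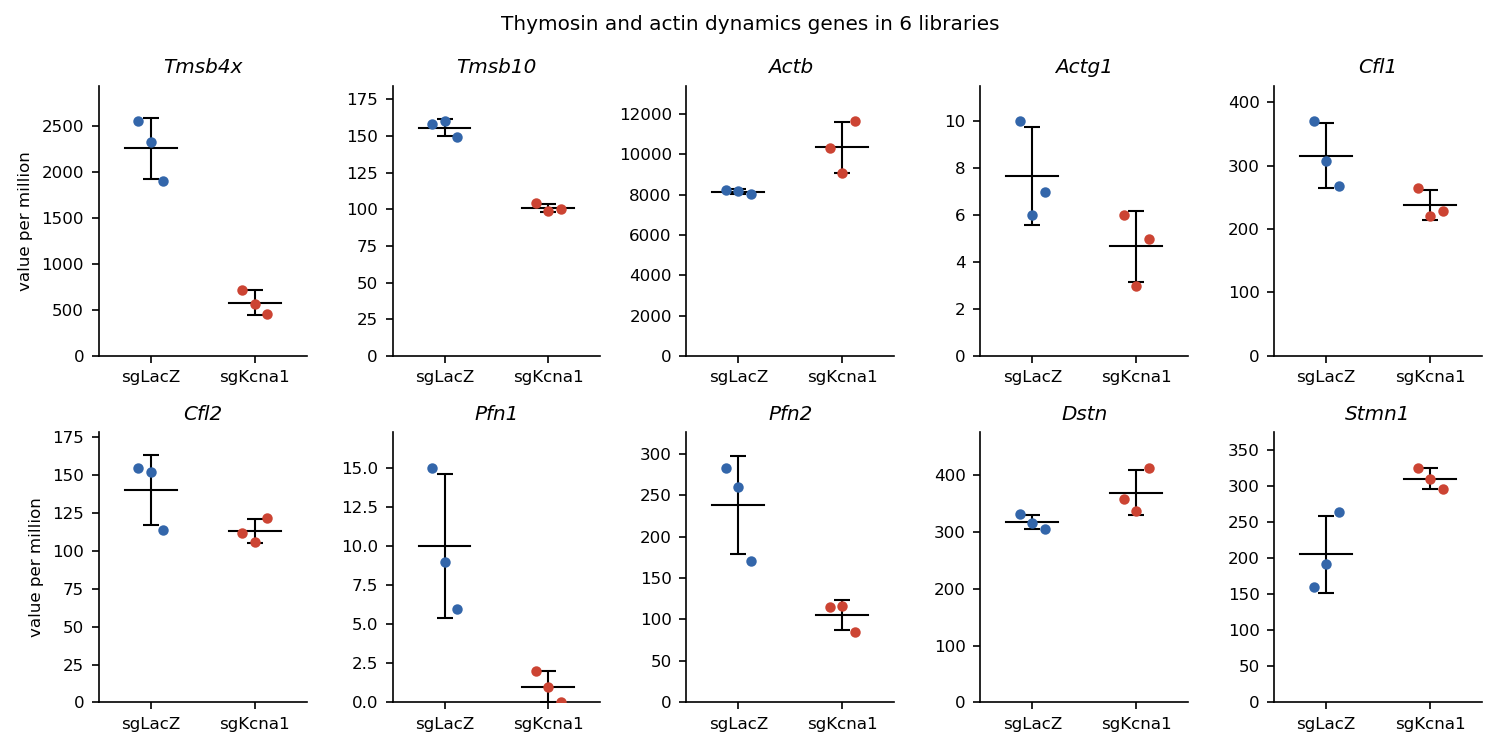
Value per gene (vertical axes, each starting at 0) of the 10 genes in the 3 sgLacZ (blue) and 3 sgKcna1 (red) libraries, with lines for the mean and bars for the SD. *Tmsb4x* lies between 1894 and 2547 in sgLacZ and between 455 and 717 in sgKcna1, while *Actb*, *Dstn* and *Stmn1* lie higher in every sgKcna1 library.

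The profilins resembled the thymosins in direction. *Pfn2*, the main profilin of neurons, was listed at 283, 260 and 171 in sgLacZ and at 115, 116 and 85 in sgKcna1. The groups did not overlap, although sgLacZ replicate 3 lay well below the other controls. The log2 difference was -1.15 (SE 0.22), the 32nd lowest of the genes with a mean of at least 50, and its adjusted p of 0.053 from limma missed the threshold. *Pfn1*, the profilin of most other tissues, was listed at 15, 9 and 6 against 2, 1 and 0, values too low for a firm difference (log2 difference -2.51, SE 0.48, adjusted p = 0.055 from limma). The summed profilin value was 298, 269 and 177 in sgLacZ and 117, 117 and 85 in sgKcna1. *Pfn1* contributed from 3.35% to 5.03% of it in sgLacZ and from 0 to 1.71% in sgKcna1, a difference of -3.07 percentage points (exact permutation p = 0.1, two-sided).

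The cytoplasmic actins differed in sign, and neither passed the test. *Actb*, encoding β-actin and listed between the 3rd and the 6th highest value of each library, stood at 8238, 8194 and 8022 in sgLacZ and at 10313, 9093 and 11652 in sgKcna1. Every sgKcna1 library was above every control, and the sgKcna1 libraries varied far more among themselves. The means were 8151 ± 114 and 10350 ± 1280 (SD, n = 3 each), with a log2 difference of 0.34 (SE 0.12) and an adjusted p of 0.15 from limma, which did not pass. *Actb* therefore stood at 3.23, 3.54 and 4.24 times the value of *Tmsb4x* in sgLacZ and at 14.4, 16.1 and 25.6 times in sgKcna1.

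*Actg1*, encoding the second cytoplasmic actin, γ-actin, was listed at 10, 6 and 7 in sgLacZ and at 6, 3 and 5 in sgKcna1. The groups overlapped, with a log2 difference of -0.62 (SE 0.30, adjusted p = 0.26 from limma). This gene is normally abundant, and its low listing limits what the value can say. In NCBIM37, the last 500 bases of its transcript had 7 matches elsewhere in the genome of at least 75 bases at 95% identity or more, which together covered 100% of these bases. A read that fits several places is often left uncounted, and how the authors treated such reads is not given in the sources used here. By the same measure other places covered 95.2% of the 3′ end of *Tmsb10*, 100% for *Cfl1* and *Dstn* and 97.8% for *Stmn1*, whereas *Tmsb4x*, *Actb*, *Cfl2*, *Pfn1* and *Pfn2* had 0 such matches. The values of *Tmsb10*, *Actg1*, *Cfl1*, *Dstn* and *Stmn1* are uncertain in this respect, and the part of shared reads was not tested. *Pfn1* was listed at low values without such a copy. In RefSeq it overlaps *Eno3*, but whether this overlap reaches its 3′ end or bears on its value was not tested.

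The ADF/cofilin genes differed in both directions, and 0 of the 3 passed the test. *Cfl1*, the main non-muscle cofilin, was listed at 370, 308 and 268 in sgLacZ and at 265, 220 and 229 in sgKcna1. Its groups were separated by a narrow margin, between 268 and 265, and the log2 difference was -0.40 (SE 0.14, adjusted p = 0.14 from limma). *Cfl2*, the muscle-type cofilin also present in brain, was listed at 155, 152 and 114 against 112, 106 and 122, with overlapping groups and a log2 difference of -0.29 (SE 0.14, adjusted p = 0.27 from limma). *Dstn*, encoding destrin (ADF), was the member with the opposite sign, at 331, 316 and 306 against 358, 336 and 413. Its groups did not overlap, but the log2 difference of 0.21 (SE 0.10) had an adjusted p of 0.27 from limma.

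The balance within this family was also compared inside each library. *Dstn* accounted for 38.7%, 40.7% and 44.5% of the summed value of *Cfl1*, *Cfl2* and *Dstn* in sgLacZ and for 48.7%, 50.8% and 54.1% in sgKcna1. The share of *Cfl1* was 43.2%, 39.7% and 39.0% in sgLacZ and 36.1%, 33.2% and 30.0% in sgKcna1. The mean shares differed by 9.89 percentage points for *Dstn* and by -7.54 for *Cfl1* (p = 0.1 for each by two-sided exact permutation). With 3 libraries against 3, 0.1 is the lowest p this test can give, so that none of the 5 shares tested could reach 0.05, and Benjamini-Hochberg adjustment over the 5 leaves 0.1 for each. The sum of the 3 genes ran from 688 to 856 in sgLacZ and from 662 to 764 in sgKcna1, with overlapping groups.

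**Figure D2:**
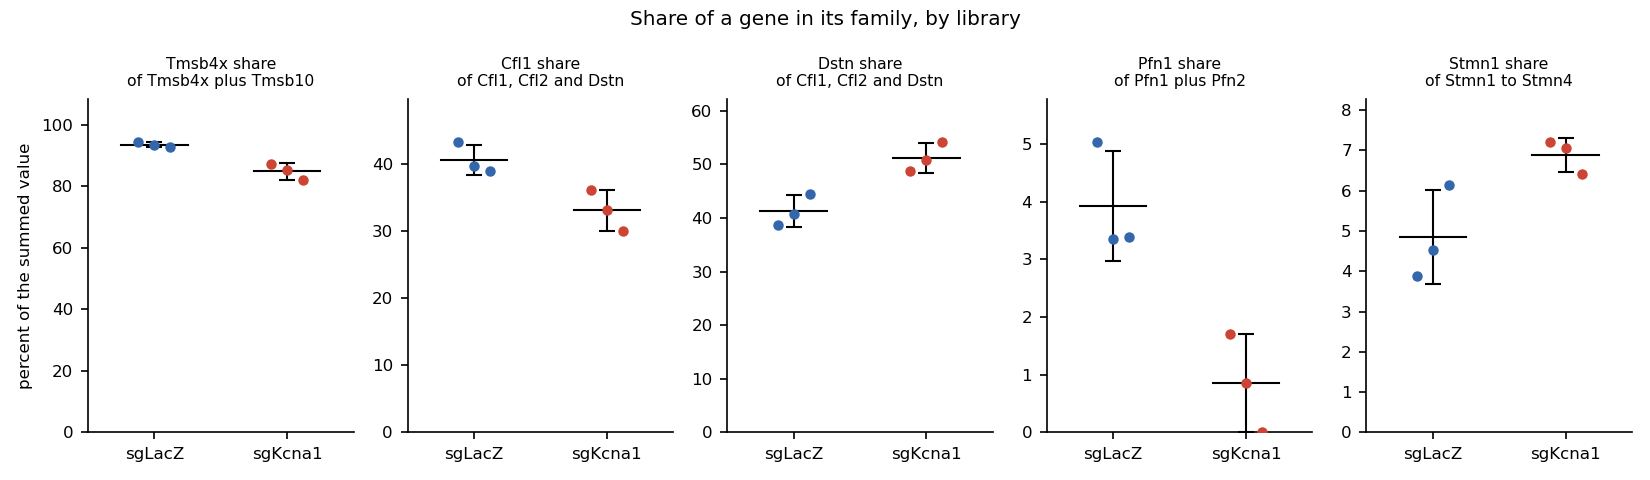
Percent of a family's summed value (vertical axes, each starting at 0) held by 1 gene in each sgLacZ (blue) and sgKcna1 (red) library, with lines for the mean and bars for the SD. The *Dstn* share lies between 48.7% and 54.1% in sgKcna1, above the controls at 38.7% to 44.5%, while the shares of *Tmsb4x*, *Cfl1* and *Pfn1* lie below their controls.

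*Stmn1* was listed at 160, 192 and 265 in sgLacZ and at 326, 311 and 296 in sgKcna1. The sgKcna1 libraries agreed closely and all lay above the controls, of which replicate 3 was again the nearest. The log2 difference was 0.62 (SE 0.18, adjusted p = 0.093 from limma), which did not pass. Its share of the 4 stathmins was 3.89%, 4.53% and 6.15% in sgLacZ and 7.20%, 7.06% and 6.41% in sgKcna1, a difference of 2.03 percentage points (exact permutation p = 0.1, two-sided).

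Of the 9 genes other than *Tmsb4x*, 1 was called, *Tmsb10*, against 1.16% of all genes. Without sgLacZ replicate 3 the number was 5, in a fit that called 14.2% of all genes, and without any other library it was 0. At an unadjusted p under 0.05 from limma, 2 were higher and 4 lower, where 9.59% and 13.6% of all genes were. Groups did not overlap for 3 genes that were higher (*Actb*, *Dstn* and *Stmn1*) and for 4 that were lower (*Tmsb10*, *Cfl1*, *Pfn1* and *Pfn2*), against 8.98% and 13.3% of all genes. Such p-values and such separation were both more common at high values. Among the 3263 genes with a mean of at least 50, groups did not overlap for 23.0% higher and 24.3% lower. At an unadjusted p under 0.05 from limma, 760 of these genes were higher and 740 lower. Of the 7 genes of this level other than *Tmsb4x*, 3 were higher and 3 lower without overlap, and 2 were higher and 3 lower at such a p. The median log2 difference of the 9 genes was -0.40, against -0.02 over all genes tested. At a mean of at least 50 it was -0.29 for the 7 genes, against 0.03 for the 3263 genes.

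**Figure D3:**
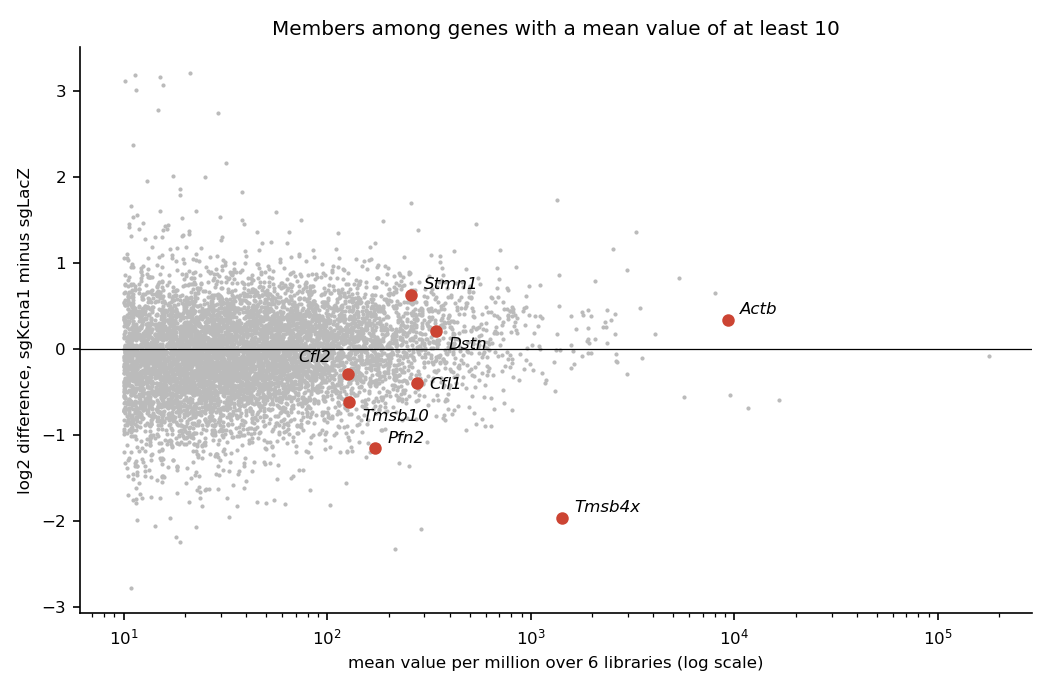
Log2 difference, sgKcna1 minus sgLacZ (vertical axis), against the mean value over 6 libraries (horizontal axis, log scale) for 8050 genes with a mean of at least 10 (grey), with 8 of the 10 genes in red (*Actg1* and *Pfn1* lie below this mean). *Tmsb4x*, chosen for a large fall at a high value, lies at -1.97, while *Actb* lies at 0.34 and *Pfn2* at -1.15.

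The order of the 3′ tag levels differed below the top. In sgLacZ, *Actb* and *Tmsb4x* were followed by *Dstn*, *Cfl1*, *Pfn2*, *Stmn1*, *Tmsb10* and *Cfl2*. From *Dstn* to *Tmsb10* each overlapped with the next in the order, and *Cfl2* stood clear of *Pfn1*. In sgKcna1, *Actb*, *Tmsb4x*, *Dstn*, *Stmn1* and *Cfl1* stood apart from each other in that order, and *Cfl2*, *Pfn2* and *Tmsb10* overlapped with their neighbours. *Pfn1* and *Actg1* were lowest in both groups. *Pfn2* thus held the 5th place in sgLacZ and the 7th in sgKcna1, and *Stmn1* the 6th and the 4th.

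The wider actin and microtubule machinery was described with lists of 113 further genes, of which 103 were tested. Of these, 2 were called, *Capzb* and *Marcks*, both lower, and 0 were higher, against 1.16% of all genes. Without sgLacZ replicate 3, 30 were called, where 14.2% of all genes were, and leaving out any other library gave 0. At an unadjusted p under 0.05 from limma, 12 were higher and 26 lower (9.59% and 13.6% of all genes). Groups did not overlap for 14 higher and 25 lower genes (8.98% and 13.3% of all genes). These shares rise with the level of a gene. Of the 3263 genes with a mean of at least 50, 760 were higher and 740 lower at such a p, and 23.0% and 24.3% did not overlap. The median log2 difference of the 103 genes was -0.11, against 0.03 for the 3263 genes. *Capzb* encodes the β subunit of the protein that caps the growing ends of filaments and was listed at 356, 372 and 241 in sgLacZ and at 142, 123 and 113 in sgKcna1. It fell by 1.33 on the log2 scale (SE 0.18, adjusted p = 0.049 from limma). *Capza2* and *Capza1*, which encode α subunits, were named after their values were seen. *Capza2* was listed at 110, 105 and 69 against 53, 53 and 59 (adjusted p = 0.069 from limma). *Capza1* was low, at 7, 4 and 7 against 5, 6 and 6, with overlapping groups. *Marcks*, a membrane protein that cross-links actin, was listed at 1104, 1069 and 851 against 650, 605 and 579. It fell by 0.71 on the log2 scale (SE 0.12, adjusted p = 0.0497 from limma). Without the intensity trend of limma both calls were lost, with adjusted p-values of 0.060 for *Capzb* and 0.11 for *Marcks*.

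The Arp2/3 complex nucleates branched filaments. Of its 10 genes 0 were called (1.16% of all genes), and the median log2 difference was -0.30. At an unadjusted p under 0.05 from limma, 5 were lower and 2 higher (13.6% and 9.59% of all genes). At a mean of 50 or more, 740 of 3263 genes were lower and 760 higher at such a p. *Arpc2*, a core subunit, was listed at 385, 385 and 336 in sgLacZ and at 437, 415 and 461 in sgKcna1 (adjusted p = 0.16 from limma). *Actr3b*, a brain-enriched form of the subunit Arp3, was listed at 145, 121 and 181 against 211, 215 and 199 (adjusted p = 0.10 from limma). *Arpc1a*, named after its values were seen, lay the other way, at 181, 149 and 108 against 72, 75 and 66 (adjusted p = 0.053 from limma). The summed value of the complex was 1533, 1498 and 1281 in sgLacZ and 1296, 1254 and 1297 in sgKcna1, with overlapping groups.

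Among 8 further monomer-binding genes the median log2 difference was -0.27, among 11 capping and severing genes -0.30, among 13 bundling and tropomyosin genes -0.11 and between 2 other actin isoforms -0.48. Apart from *Capzb* and *Marcks*, 0 of these genes were called. In the lists that follow 0 genes were called as well, against 1.16% of all genes. Among 12 activators of Arp2/3 the median log2 difference was -0.25, with *Cyfip2* at 181, 181 and 174 against 212, 176 and 197 and *Nckap1* at 149, 139 and 130 against 142, 122 and 125, both with overlapping groups. Among 12 formin and Ena/VASP genes, which elongate unbranched filaments, the median was 0.24. *Enah* stood at 286, 304 and 371 against 439, 380 and 406 and *Daam1* at 215, 211 and 243 against 305, 306 and 295 (adjusted p of 0.13 and 0.056 from limma). Among 13 kinases, phosphatases and partners of cofilin the median was 0.23, with *Coro1c* at 285, 355 and 559 against 572, 603 and 500, which overlapped. Among 10 genes of the serum response factor pathway it was -0.17. *Cnn3*, the calponin of non-muscle cells, was listed at 272, 241 and 196 against 169, 168 and 158 (adjusted p = 0.074 from limma). *Srf*, the serum response factor, was listed at 100, 109 and 125 against 100, 108 and 81, with overlapping groups.

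**Figure D4:**
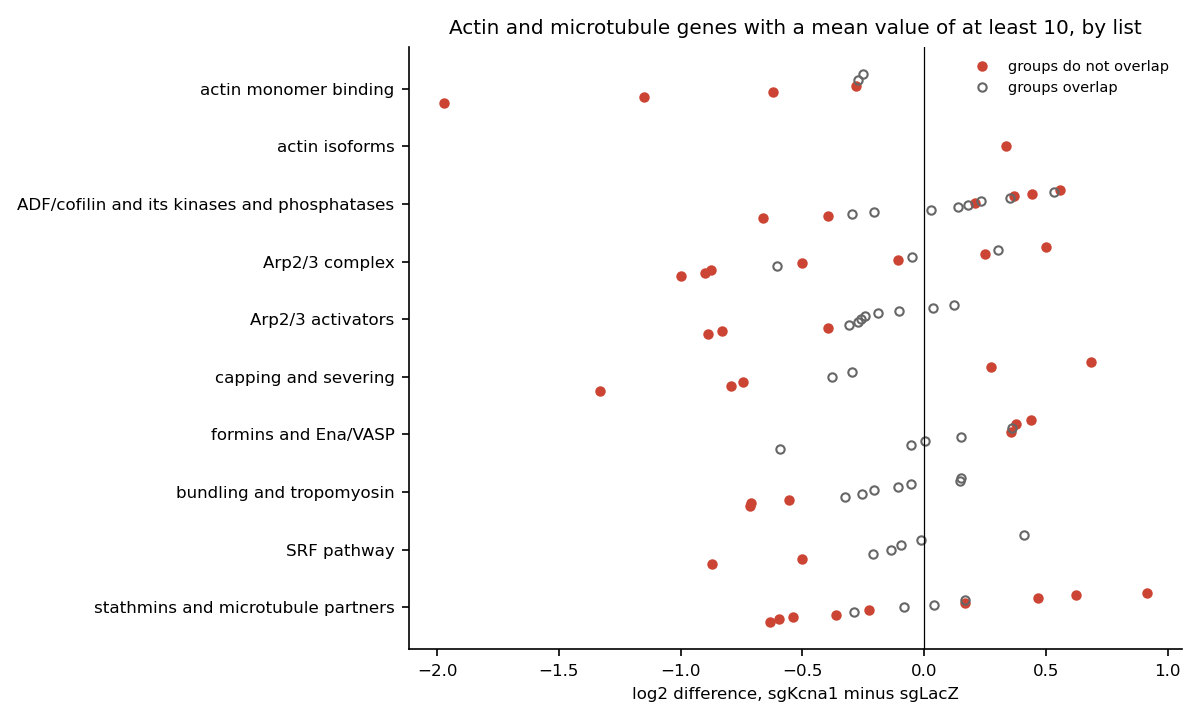
Log2 difference, sgKcna1 minus sgLacZ (horizontal axis), of 87 genes with a mean of 10 or more, each a point in the row of its list, filled red where the groups did not overlap and open where they did. The points include 8 of the 10 genes, 3 of them among the 6 monomer-binding genes. Of the 79 others, 30 lie above 0 and 49 below. Of all genes tested, without this limit of level, 8614 lie above and 9896 below. Among the 3263 genes with a mean of at least 50 it is 1729 above and 1534 below.

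Of 12 further stathmin, tubulin and microtubule genes 0 were called (1.16% of all genes), and the median log2 difference was -0.15. At an unadjusted p under 0.05 from limma, 2 were higher and 5 lower (9.59% and 13.6% of all genes). At a mean of 50 or more, 760 of 3263 genes were higher and 740 lower at such a p. *Tubb2b*, a β-tubulin of developing neurons, was listed at 18462, 21613 and 19524 in sgLacZ and at 12793, 12817 and 13773 in sgKcna1 (log2 difference -0.60, SE 0.12, adjusted p = 0.055 from limma). *Tuba1a*, the main α-tubulin of young neurons, was listed at 11263, 10840 and 11492 against 8392, 8728 and 6257 (adjusted p = 0.086 from limma). *Tubb3*, the neuron-specific β-tubulin, and *Dcx*, the microtubule-binding doublecortin of immature neurons, were named after their values were seen. *Tubb3* lay higher, at 1862, 1752 and 2605 against 3855, 3221 and 4591, and *Dcx* lower, at 958, 961 and 785 against 640, 614 and 491 (adjusted p = 0.056 from limma for each). Groups did not overlap for these 4 genes.

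The genes whose profile over the 6 libraries was most like that of *Tmsb4x*, by the root mean square difference of centred log2 values among 3262 other genes with a mean of 50 or more, were *Id3* (0.13), *Cox7c* (0.20), *Cspg5* (0.20), *Txn1* (0.25) and *Ncs1* (0.26). *Id3*, an inhibitor of helix-loop-helix factors, was listed at 95, 81 and 59 against 27, 23 and 16. *Cspg5*, a brain proteoglycan, was listed at 109, 91 and 56 against 28, 26 and 18. *Txn1*, thioredoxin, was listed at 211, 185 and 163 against 67, 59 and 60. This likeness is a description over 6 libraries and largely restates the difference between the groups.

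Markers of other cell types were read from lists, and a marker was called by the same rule as any gene (1.16% of all genes). The summed value of 8 microglial markers ran from 23 to 28 in sgLacZ and from 58 to 78 in sgKcna1, with 1 called, *C1qa* (higher), and 0 of the 8 at 0 throughout. The sum of 10 astrocyte markers ran from 961 to 1069 in sgLacZ and from 702 to 718 in sgKcna1, with 3 called, *Aqp4*, *Aldoc* and *Sox9* (all lower). For 8 oligodendrocyte lineage markers the sum ran from 66 to 98 and from 40 to 44, with 1 called, *Olig2* (lower), and *Mag* at 0 throughout. For 8 markers of dividing cells it ran from 90 to 99 and from 56 to 59, with 0 called. Vascular and meningeal markers were near 0, with sums of 9 to 17 in sgLacZ and 6 to 8 in sgKcna1 over 8 genes and 0 called.

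For 5 markers of immature neurons, which include *Dcx*, the sum ran from 24734 to 27978 in sgLacZ and from 17910 to 18892 in sgKcna1, with 0 called. *Tubb2b* made up most of it, and the other 4 summed to 6272, 6365 and 5619 against 5432, 5093 and 5119. The sum of 8 neuron markers ran from 4186 to 4925 in sgLacZ and from 5311 to 6719 in sgKcna1, with 0 called. Its direction rested on *Tubb3*, since the other 7 summed to 2324, 2519 and 2320 against 2153, 2090 and 2128, lower in every sgKcna1 library. *Map2* in turn held most of this smaller sum, at 1643, 1819 and 1614 against 1442, 1466 and 1427. Of the 8 neuron markers, 3 had a log2 difference above 0 and 5 below. *Slc17a7* was among those above, at 33, 29 and 41 against 47, 54 and 57. *Prox1*, a marker of the labelled region, the hippocampus, was above 0 in every library. The part of these markers in the values of the actin genes was not tested.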

How the data were processed

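RNA of primary mouse neurons (3 sgLacZ and 3 sgKcna1 libraries) was sequenced from the 3′ end with QuantSeq libraries. The deposited files hold a score per gene symbol, a whole number without a header. Since its library totals lay between 999047 and 999717, it was taken as a scaled value that the authors rounded, and the limma test planned for values that are not counts was used. The submitters' processing notes name STAR 2.7, featureCounts, DESeq2 and mm10, whereas the methods of the paper name Bowtie2 and mm9. The annotation and the scaling are not given in the sources used here. Depth is unknown, so counting intervals and floors are not given.

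Groups and replicate numbers came from the sample titles. Values were fitted as log2(value + 1) with limma 3.58.1 in R 4.3.3 (lmFit, eBayes with an intensity trend) over 19504 genes, with 1 factor, the guide, and Benjamini-Hochberg adjusted p-values. The fit was tested on simulated data. Family shares were compared by exact permutation (scipy 1.17.1). Promoter windows came from RefSeq, and 3′ ends were searched in NCBIM37 with blastn 2.17.0. Members, gene lists and alternatives were chosen with earlier results of these data known. Named were the 10 members, *Kcna1*, called genes of each actin list (at most 4, or the 2 with the highest mean where 0 were called, members counted as part of their list), and the 5 genes most like *Tmsb4x*. Genes named outside this rule are given as such in the text, apart from cell type markers. Alternatives were other scalings, filters, a pseudocount of 0.1, no trend, the replicate block and each library left out. DESeq2 and edgeR were not run, because they need counts.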

Additional observations from a re-analysis of the deposited data

How the results depend on the processing

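All 10 genes kept the sign of their log2 difference under all 13 alternatives. Between these, the log2 difference of *Tmsb4x* lay from -2.14 to -1.81, that of *Tmsb10* from -0.65 to -0.53, of *Pfn2* from -1.37 to -1.004, of *Actb* from 0.25 to 0.43, of *Stmn1* from 0.46 to 0.82, of *Cfl1* from -0.51 to -0.28 and of *Cfl2* from -0.44 to -0.21. That of *Dstn* ranged from 0.13 (without sgKcna1 replicate 3) to 0.30, of *Actg1* from -0.80 to -0.39 (without sgKcna1 replicate 2) and of *Pfn1* from -3.94 (pseudocount of 0.1) to -2.08. The calls depended on the processing, and the cause was not tested. Over all genes, 226 were called (68 higher, 158 lower), against 1719 with median-of-ratios factors (962 higher, 757 lower), 1768 without Gm42418, 1543 with a mean value of at least 1 and 627 with a pseudocount of 0.1. Without the intensity trend 201 were called, of which 84 were shared with the 226, and the split turned to 117 higher and 84 lower. Of the 9 genes other than *Tmsb4x*, 1 was called, against 4 with either rescaling (*Tmsb10*, *Pfn1*, *Pfn2* and *Stmn1*), 3 with the mean value filter and 0 without the intensity trend. Of the 103 further actin and microtubule genes, 2 were called, against 16 with median-of-ratios factors (7 higher, 9 lower), 23 without Gm42418, 21 with the mean value filter, 7 with the smaller pseudocount and 1 without the trend. That 1 was neither *Capzb* nor *Marcks* but *Tmsb15b1*, named after its values were seen, at 0, 0 and 0 against 1, 1 and 1. Without any low-value filter the numbers were 2405, 6 and 26, but limma warned that its variances are then unreliable, since more than 50% were exactly 0.

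Leaving out 1 library at a time, calls over all genes ranged from 0 to 2711, those of the 9 genes from 0 to 5 and those of the further genes from 0 to 30. The highest numbers came without sgLacZ replicate 3, and leaving out any other library gave 0, with from 3332 to 3853 genes at an unadjusted p under 0.05. *Kcna1*, *Tmsb10*, *Capzb* and *Marcks* thus each lost their call without any 1 of these 5 libraries. Differences of shares in percentage points ranged from 8.44 to 11.5 for *Dstn*, from -9.02 to -5.98 for *Cfl1*, from -3.50 to -2.51 for *Pfn1*, from 1.55 to 2.68 for *Stmn1*, from -9.92 to -7.25 for *Tmsb4x* and from 0.036 to 0.060 for *Actb* among the cytoplasmic actins (0.049 with all libraries, exact permutation p = 0.1).

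With the replicate number as a block, 0 genes were called by limma, with 4326 at an unadjusted p under 0.05, and 0 of the 9 and 0 of the further genes. Deviations from the group means correlated at 0.014, 0.11 and 0.15 for libraries sharing a number and from -0.16 to 0.099 for the others. Since 1 of the 3 was not over 0.1 and the labels give no pairing, the numbers were not used to pair libraries. The unknown depth limits the low values, above all of *Pfn1* and *Actg1*.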
